A study of Mus musculus with 19 samples.

Results

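The blood leukocytes of B6 mice 8 weeks after CAWS were compared with those of B6 mice at 0 weeks. CAWS is the water-soluble fraction of the yeast Candida albicans, a mannoprotein and glucan complex that causes inflammation of the coronary arteries in mice. The arrays were chosen by their titles alone, B6 at 8 w (replicates 1 and 2) against B6 at 0 w (replicates 1 and 2), which gave 4 of the 18 samples and 5 of the 19 arrays of the series, because the second 0 w sample was hybridized on 2 technical arrays that were averaged. Male B6 mice (C57BL/6J), 5 to 14 weeks of age by the methods, were injected intraperitoneally with CAWS on 5 consecutive days, and 0 w was set right after the last injection. The methods give the dose as 0 or 1 mg per mouse and the labels give none, so the dose behind each sample is not stated in the sources used here. The labels describe the 0 w and the 8 w samples alike as following CAWS, and none as uninjected. Where the strains are compared, the DBA/2 groups at 0 w and 8 w held 2 samples each, of male mice described in the same way. RNA was prepared from whole blood with a filter that retains leukocytes, labelled with Cy3 and hybridized to a 1-colour whole mouse genome array. The methods name 3 mice per strain at each later time point and RNA of individual mice.

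Circulating leukocytes are mainly lymphocytes, neutrophils and monocytes. Neutrophils are made in the bone marrow, pack their granules stepwise as they mature (first the primary granules with myeloperoxidase and the serine proteases, later the secondary and tertiary granules with lactoferrin, cathelicidin and gelatinase), and leave the marrow in larger numbers under G-CSF and interleukin 1 during inflammation. Fungal cell walls are sensed by C-type lectins such as Dectin-1 and Mincle, which signal through an ITAM, a tyrosine motif that recruits the kinase Syk, and by Toll-like receptors, which signal through Myd88.

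Levels are given below as normalized log2 intensities, that is, the log2 processed signal of a probe minus the 75th percentile of its array, and a change is the 8 w mean minus the 0 w mean on that scale. Changes were tested with limma over all 18 samples, with Benjamini-Hochberg adjustment over 22936 tested probes and a threshold of 0.05. Adjusted p-values below are from that fit. Levels are compared between samples for 1 probe, not between probes. In such bulk RNA, fewer cells of a type and less RNA per cell cannot be told apart.

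The tissue label was checked first. The leukocyte genes were present, with all 19 tested markers shared by leukocytes well above background on each of the 5 arrays, but so was liver RNA. The summed linear level of 28 hepatocyte markers was 67.7 to 69.4 on the 0 w arrays and 45.4 to 46.2 on the 8 w arrays, against 1.93 to 2.97 on the B6 arrays of 2, 4 and 9 w. Albumin (Alb) had levels of 3.90 and 3.87 in the 0 w samples, 2.95 and 2.79 in the 8 w samples, −2.37 at 2 w and −6.59 to −6.74 at 4 and 9 w. Liver RNA was thus high in both groups but not equal, and each list below that liver also expresses has to be read beside these values. The replicates stood close together. The SD of the log2 difference between 2 arrays was 0.22 to 0.25 between the 0 w replicates, 0.26 between the 8 w replicates and 0.24 between the technical arrays of 1 sample, against 0.55 to 0.60 between groups. Pairs labelled as biological replicates thus differed about as much as the technical pair, 1 of them less and the others by up to 0.26 against 0.24. The labels do not say which mice they came from, so part of this spread may be technical. The p-values rest on the spread within groups pooled over all 18 samples, DBA/2 included, not on these 4 samples alone. At the threshold above, 4858 probes passed in that fit and 1527 in a fit of the 4 samples alone. The 8 w arrays were also brighter, with a 75th percentile of 87.4 and 87.5 against 40.3 to 46.9 at 0 w. All replicates numbered 1 were scanned on 1 day and all numbered 2 on another.

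At 8 w, 2512 probes were higher (11.0% of those tested) and 2346 lower (10.2%) than at 0 w, 21.2% in all, and the median change over all tested probes was −0.04. Among these, 763 rises and 621 falls were at least 2-fold. Higher probes made up 51.7% of the calls, but this split rests on the centring. It was 13.7% when arrays were centred on pan-leukocyte genes, which moved the median of all probes to −0.40, and 99.5% in the deposited values without scaling, with a median of 0.98. Changes are therefore described relative to the median of all probes. The 11.0% higher and 10.2% lower of all probes are the shares that each B6 list count below is set beside. Among 14979 probes that were well above background on the 4 B6 arrays of 2, 4 and 9 w, where liver markers were low, 27.8% changed, 2083 up and 2074 down. The 15 largest rises, with 1 probe a gene, among probes that were also well above background on all 5 arrays were Saa2, Mt2, Wfdc17, Ifitm1, Cstdc6, Stfa2l1, Mmp8, Saa1, Cstdc4, S100a8, Gsdme, Il1b, S100a9, Bst1 and Pram1, from 2.84 (Pram1) to 6.05 (Saa2). A second, dimmer probe did not pass for Gsdme (0.068, adjusted p = 0.957) or Pram1 (−0.22, adjusted p = 0.89). Mmp8, Cstdc4, Cstdc6, Stfa2l1, S100a8, S100a9, Il1b and Pram1 are genes known from neutrophils or other myeloid cells, and Cstdc4, Cstdc6 and Stfa2l1 belong to the stefin A family of protease inhibitors, whose near-identical copies may share probe signal.

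**Figure D1:**
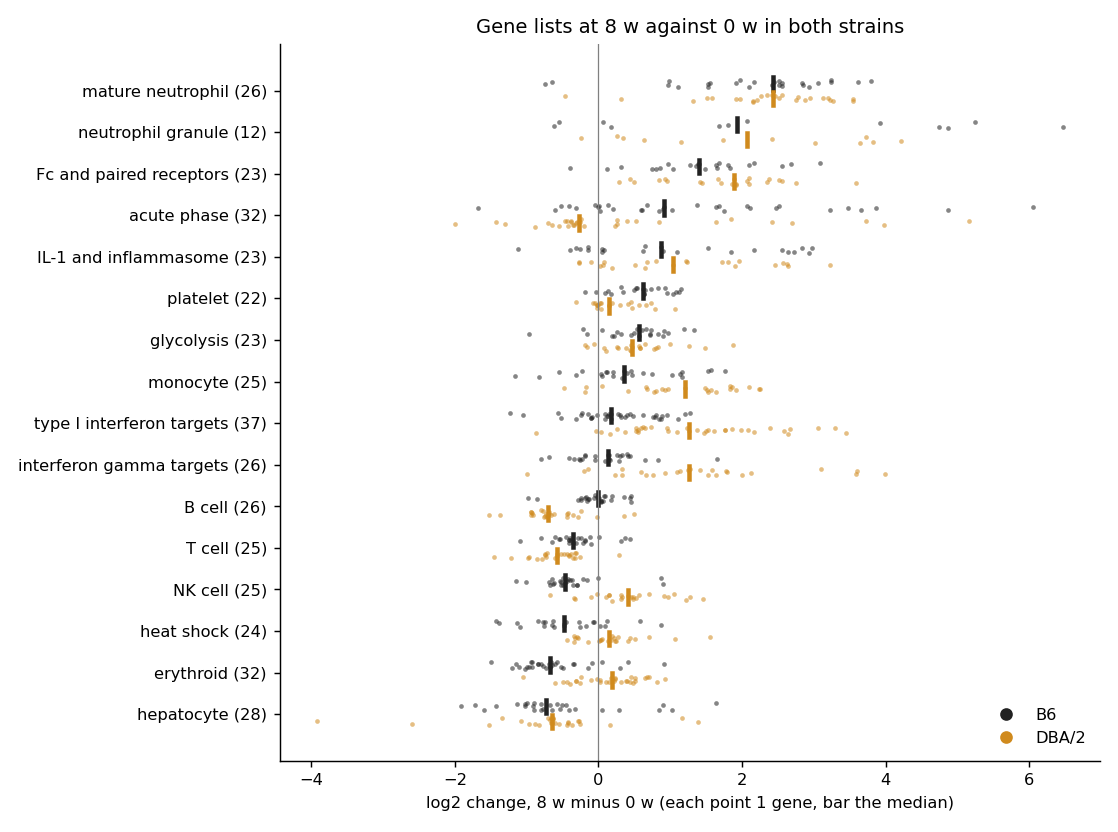
Log2 change at 8 w minus 0 w (x axis) of the tested genes of 16 lists (y axis, number of genes in brackets) in B6 (black) and DBA/2 (orange). Each point is 1 gene and each bar is the median of the list. The neutrophil medians were 2.43 in B6 and 2.44 in DBA/2, whereas the erythroid median was −0.68 in B6 and 0.19 in DBA/2.

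Genes of mature neutrophils rose together. Of 28 genes on the list, 26 were tested, 24 were higher, Cxcr4 was lower and Stfa3 did not pass (−0.65), beside a background of 11.0% of probes higher. The median change of the list was 2.43, or 2.37 with the 3 genes that were not well above background on any 0 w array set at their lower bounds, against −0.04 over all probes. It was 2.40 on the first scan day and 2.45 on the second, and no scaling turned its sign relative to all probes. S100a8, a subunit of the calcium-binding complex calprotectin that makes up much of the neutrophil cytosol, had levels of 1.92 and 2.02 at 0 w and of 5.01 and 5.06 at 8 w. Its partner subunit S100a9 had 5.66 and 5.65 at 0 w and 8.59 and 8.58 at 8 w. The groups did not overlap for either gene, and the changes were 3.06 ± 0.074 (SE, adjusted p = 4.57e-08, 8.36-fold) for S100a8 and 2.93 ± 0.11 (adjusted p = 2.84e-07, 7.61-fold) for S100a9.

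The receptors that guide neutrophils rose by a similar step. Cxcr2, the receptor for the chemokines that draw neutrophils out of the marrow and into tissue, went from −0.99 and −1.12 at 0 w to 1.42 and 1.52 at 8 w (change 2.52 ± 0.11, adjusted p = 7.49e-07). Csf3r, the G-CSF receptor, changed by 2.56 and Fpr1, a receptor for bacterial formyl peptides, by 1.97. Cxcr4, the receptor that holds neutrophils in the marrow and that many lymphocytes and monocytes also carry, went the other way, from −0.98 and −1.11 to −1.78 and −1.81 (change −0.75 ± 0.096, adjusted p = 0.000539). In the deposited values without scaling its change was 0.27, below the median of all probes on that scale. Mmp8, the collagenase of neutrophil granules, had levels of −2.78 and −2.88 at 0 w and 0.50 and 0.31 at 8 w, a change of 3.24 ± 0.12 (9.42-fold, adjusted p = 2.84e-07). The gelatinase Mmp9 changed by 2.10.

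Genes of the granules rose in part. Of 16 genes, 12 were tested, 7 were higher and none was lower, with a median of 1.93 (1.94 with 3 genes at their bounds). Among them, the cathelicidin Camp, the cathelin-like Ngp and the siderophore-binding lipocalin Lcn2, were not well above background on any 0 w array and were well above it on both 8 w arrays. The 8 w level of Camp was higher by at least 29.8-fold (adjusted p = 1.04e-08), that of Ngp by at least 13.6-fold (adjusted p = 1.24e-06) and that of Lcn2 by at least 8.64-fold (adjusted p = 6.5e-06), where the bound sets the 8 w mean against the lowest signal still well above background on the 0 w arrays. The levels of Camp were −6.43 and −6.22 at 0 w and 0.11 and 0.18 at 8 w. Lactoferrin (Ltf), which was well above background on 1 of the 3 arrays at 0 w, changed by 4.74 ± 0.26 (adjusted p = 3.53e-06), haptoglobin (Hp) by 2.07 and Chi3l3, a chitinase-like lectin, by 1.80. Hp and Lcn2 are also acute phase genes, and the part of the liver RNA in their values was not tested. Genes of the primary granules did not pass or were not measured. Myeloperoxidase (Mpo) had −4.24 and −4.27 at 0 w and −4.22 and −4.17 at 8 w (change 0.058, adjusted p = 0.907), cathepsin G (Ctsg) changed by −0.55 (adjusted p = 0.164), and no array of the 5 had Elane or Prtn3 well above background. The lowest signals well above background were −5.13 to −3.94 on the 0 w arrays and −5.73 and −4.42 on the 8 w arrays. The Mpo levels lay near these, so they give little ground for calling primary granule RNA unchanged.

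**Figure D2:**
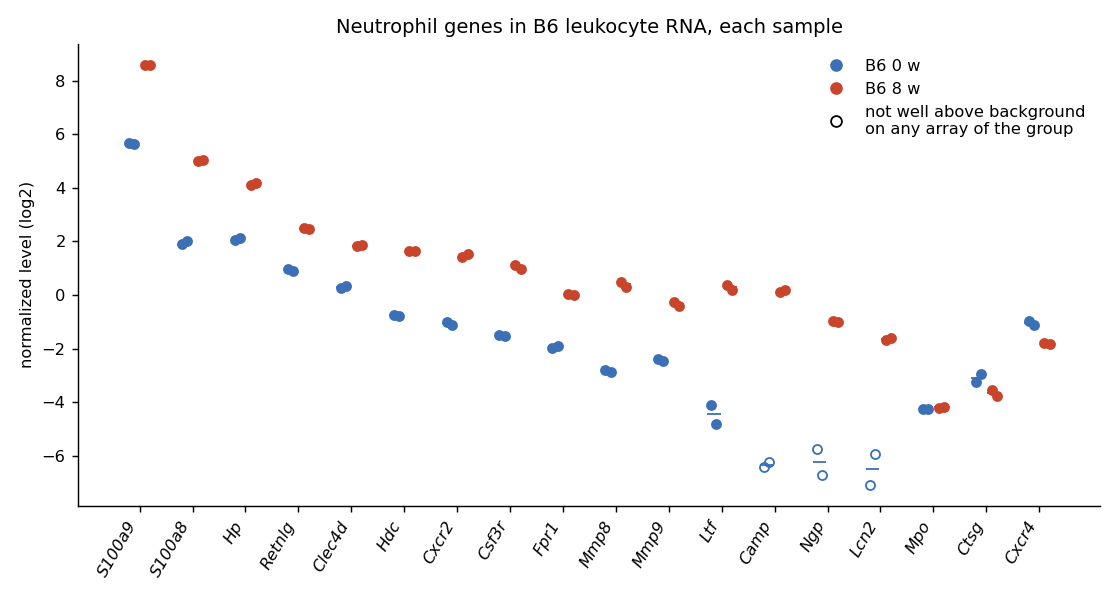
Normalized level (log2, y axis) of 18 neutrophil genes (x axis) in the 2 B6 samples at 0 w (blue) and the 2 at 8 w (red). Each point is 1 sample, each bar the group mean, and open points mark groups in which no array was well above background. S100a8 to Lcn2 lie higher at 8 w in both samples, Mpo lies near −4.2 in both groups, and Cxcr4 lies lower.

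The bases upstream of these genes were searched because the genes moved together and because C/EBP factors bind a short motif. These factors drive granule genes in maturing neutrophils. The sequences of 4 genes are shown, chosen because their windows held a match, while those of Camp and Lcn2, without a match, are not. The sequences are the 150 bases before the RefSeq start site in GRCm38.p6, on the strand of the gene, 5′ to 3′, with each match to TTNNGNAA (a C/EBP-like motif, searched on both strands, overlaps allowed) in capitals. They lie at chr9:110419658-110419807 (Ngp, plus strand), chr9:111019142-111019291 (Ltf, plus strand), chr3:90668921-90669070 (S100a8, plus strand) and chr3:90695722-90695871 (S100a9, minus strand).
Ngp: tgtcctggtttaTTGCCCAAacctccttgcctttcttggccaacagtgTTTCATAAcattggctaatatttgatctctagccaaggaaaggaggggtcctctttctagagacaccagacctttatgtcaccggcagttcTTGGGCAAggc
Ltf: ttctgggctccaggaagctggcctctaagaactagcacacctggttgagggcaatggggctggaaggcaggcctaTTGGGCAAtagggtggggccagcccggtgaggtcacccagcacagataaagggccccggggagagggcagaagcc
S100a8: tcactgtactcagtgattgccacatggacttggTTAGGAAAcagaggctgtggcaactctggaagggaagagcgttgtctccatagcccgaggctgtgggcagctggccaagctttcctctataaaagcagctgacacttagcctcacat
S100a9: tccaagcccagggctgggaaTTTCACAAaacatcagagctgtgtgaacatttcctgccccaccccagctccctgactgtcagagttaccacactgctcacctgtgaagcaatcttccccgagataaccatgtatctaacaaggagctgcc
Of the 26 tested mature neutrophil genes, 24 had a promoter in the table, and 12 of these windows (50%) held the motif, as did 22.8% of 27025 promoters of the same length. The windows of Camp and Lcn2, which were also higher, held no match. A STAT-like motif (TTCNNNGAA), searched in the same way, was in 3 of the 24 windows (12.5%) and in 4.17% of all promoters. Whether either motif had a part in these changes was not tested.

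Receptors and signal proteins of innate sensing rose as well. Of 23 tested genes of Fc, ITAM-linked and inhibitory receptors, 20 were higher and none lower (median 1.40). Beside this and the 2 lists below stand 11.0% of all probes higher and 10.2% lower. Clec5a, a lectin that signals through Tyrobp, changed by 3.08, the inhibitory receptor Lilrb4 by 2.68 and Cd300lf by 2.55. Of 17 tested genes of fungal recognition, 9 were higher and 1, the lymphocyte lectin Clec2d (−0.36), was lower (median 0.86). Clec7a, which encodes the beta-glucan receptor Dectin-1, had levels of −0.27 and −0.25 at 0 w and 2.30 and 2.30 at 8 w. This gave a change of 2.56 ± 0.077 (5.89-fold, adjusted p = 1.3e-07), with no overlap. Clec4e, which encodes Mincle, changed by 2.45 and Clec4d by 1.53, whereas the shared kinase Syk did not pass (−0.10, adjusted p = 0.374). Of 16 tested Toll-like receptors and partners, 8 were higher and none lower (median 0.61), among them Tlr6 (2.15), Tlr2 (1.49) and the adaptor Myd88 (1.52). For Tlr4 the rise was at least 2.33-fold (adjusted p = 4.99e-05).

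The interleukin 1 genes rose on both the agonist and the antagonist side. Of 23 tested genes of interleukin 1 and the inflammasome, 13 were higher and 3 lower (median 0.87), beside 11.0% and 10.2% of all probes. Il1b, the cytokine itself, had levels of −0.05 and 0.06 at 0 w and 2.89 and 2.99 at 8 w (change 2.93 ± 0.085, 7.64-fold, adjusted p = 1.09e-07). Il1rn, the secreted receptor antagonist, rose at least 4.7-fold (adjusted p = 3.26e-06), Il1r2, the decoy receptor, changed by 2.56, and Il1rap, the shared coreceptor, rose at least 3.11-fold (adjusted p = 0.000189). Pyrin (Mefv) changed by 2.64 and Casp4, the mouse caspase 11 gene, by 2.17. The inflammasome sensor Nlrp3 did not pass (−0.26, adjusted p = 0.228). Il1rl1, the interleukin 33 receptor carried by mast cells and type 2 lymphocytes, was lower (−1.12), as were Irak1 (−0.40) and Il18r1 (−0.31). With normexp background correction, the list median was −0.37 and that of the Toll-like receptor list −0.11, both above the median of all probes on that scale (−0.63), and Il1rap (−0.18) and Tlr4 (−0.38) turned negative.

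Monocyte genes rose less than neutrophil genes. Of 25 tested, 12 were higher and none lower, with a median of 0.35. For this list and the next, 11.0% of all probes were higher and 10.2% lower. F13a1, the factor XIII A chain of monocytes and platelets, changed by 1.76, and Ccr2, the receptor that brings classical monocytes out of the marrow, had −1.20 and −1.19 at 0 w and 0.37 and 0.35 at 8 w (change 1.56 ± 0.08, adjusted p = 2.1e-06). Csf1r, the growth factor receptor that defines the lineage, did not pass (0.33, adjusted p = 0.0996). Of 13 tested genes of tissue macrophages, 3 were higher and 4 lower, and the median was near 0 (0.0061) with a sign that turned with the processing. The iron exporter Slc40a1 was higher (2.30), while the complement subunits C1qa (−1.19) and C1qc (−0.99), the apolipoprotein Apoe (−1.07) and the phagocytic receptor Timd4 (−1.39) were lower. Liver also expresses Apoe, and its macrophages express the C1q genes and Timd4. The part of the liver RNA in these values was not tested.

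The liver markers and the acute phase genes moved in opposite directions. Of 30 hepatocyte markers, 28 were tested, 8 were lower and 1 was higher, beside 10.2% of all probes lower and 11.0% higher. The median was −0.73, or −0.76 on each scan day. The fatty acid carrier Fabp1 had 3.94 and 3.89 at 0 w and 2.24 and 2.13 at 8 w, a change of −1.72 ± 0.19 (adjusted p = 0.000198). Cyp3a11 (−1.92), the glucose 6-phosphatase G6pc (−1.59) and the retinol carrier Rbp4 (−1.43) were also lower. The call of Cyp3a11 was lost without any 1 of the 4 samples. Alb was lower in both 8 w samples (−1.02) but did not pass (adjusted p = 0.133). The haem carrier hemopexin (Hpx), an acute phase protein, was the 1 marker that rose, from −0.39 and −0.35 to 1.19 and 1.34 (change 1.63 ± 0.51, adjusted p = 0.0487), a call lost without any 1 of the 4 samples. The fibrinogen chains Fgb (0.90, adjusted p = 0.059), Fga (1.03, adjusted p = 0.153) and Fgg (0.84, adjusted p = 0.286) were higher in both 8 w samples without passing.

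Of 32 tested acute phase genes, 11 were higher and 1, Hamp2 (−1.68), was lower (median 0.91), beside 11.0% and 10.2% of all probes. Saa2, an acute phase serum amyloid A, went from −2.09 and −1.99 at 0 w to 4.00 and 4.03 at 8 w (change 6.05 ± 0.31, 66.4-fold, adjusted p = 1.99e-06). The B6 arrays of 2, 4 and 9 w, which had little liver RNA, had levels of −2.52 to −3.16. Saa1 went from 1.30 and 1.62 to 4.65 and 4.73 (change 3.23 ± 0.22, adjusted p = 1.16e-05), and its level was 1.25 to 2.24 on those other arrays. A second, dimmer Saa1 probe changed by 6.29 ± 0.75 (adjusted p = 0.000344). Saa1 and Saa2 are nearly identical genes, so their probes may share signal. The metallothionein Mt2, a zinc-binding protein that liver and leukocytes both make, went from −2.17 and −2.24 to 1.46 and 1.45 (change 3.66 ± 0.16, adjusted p = 8.23e-07), and Mt1 changed by 2.11. Socs3, the feedback inhibitor of interleukin 6 and G-CSF receptors, went from 0.61 and 0.62 to 3.13 and 3.14 (change 2.52 ± 0.072, adjusted p = 1.09e-07), and no array of the 5 had Il6 well above background. Whether the liver or the leukocytes of these samples carried the Saa1, Saa2, Mt1, Mt2 and Socs3 RNA, or that of Hp and Lcn2, was not tested.

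**Figure D3:**
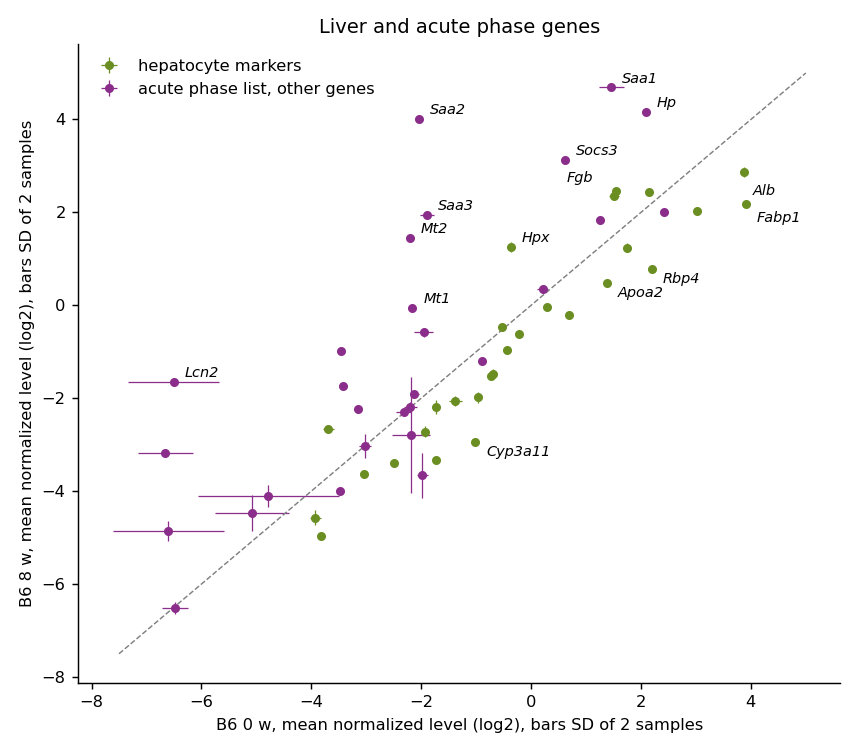
Mean normalized level (log2) at B6 8 w (y axis) against B6 0 w (x axis) for 28 hepatocyte markers (green) and the other tested acute phase genes (purple). Points are means of 2 samples, bars are SDs and the dashed line marks equal levels. Fabp1, Cyp3a11 and Rbp4 lie below the line and Hpx, Saa1, Saa2 and Mt2 above it.

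Genes of red cells fell and genes of platelets rose. Of 32 tested erythroid genes, 24 were lower and 2 higher (median −0.68, against 10.2% of all probes lower), a median that lay at the median of all probes (0.014 above it) with normexp background correction. Ahsp, the chaperone of alpha globin, had levels of 3.41 and 3.24 at 0 w and 1.92 and 1.73 at 8 w (change −1.50 ± 0.12, adjusted p = 2.98e-05), and Alas2, the first enzyme of erythroid haem synthesis, changed by −1.21 ± 0.12 (adjusted p = 8.46e-05). Both groups were apart for each gene. The globin probe Hbb-b1 was saturated on all 5 arrays and Hba-a1 on all 3 arrays of 0 w and 1 of 8 w, so no fold is given for them. Slc14a1, the urea transporter of red cells, was higher (0.91), as was the transferrin receptor Tfrc (0.42).

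Of 22 tested platelet genes, 15 were higher and none was lower (median 0.63), beside 11.0% of all probes higher and 10.2% lower. Thbs1, the alpha granule protein thrombospondin, had 1.33 and 1.30 at 0 w and 2.48 and 2.44 at 8 w (change 1.15 ± 0.071, adjusted p = 6.84e-06). The von Willebrand factor receptor chains Gp1bb (1.12) and Gp1ba (1.04) and the collagen receptor Gp6 (1.08) rose too. The alpha granule chemokine Pf4 did not pass (0.14, adjusted p = 0.381). The sign of the platelet median relative to all probes did not turn under any scaling.

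T and NK cell genes that changed were mostly lower, and B cell genes changed about as often as all probes. Of 25 tested T cell genes, 8 were lower and none higher (median −0.36, but 0.16 above the median of all probes with normexp). The T cell receptor kinase Zap70 had −0.71 and −0.85 at 0 w and −1.77 and −1.96 at 8 w (change −1.09 ± 0.15, adjusted p = 0.000739), and Trat1 (−0.80), the receptor Cd5 (−0.61) and the kinase Lck (−0.55) were lower. Among the genes that define the lineage, Cd3e (−0.65, adjusted p = 0.144) and Cd8a (0.011, adjusted p = 0.972) did not pass. Of 25 tested NK cell genes, 6 were lower and 2 higher (median −0.47, below the median of all probes under every scaling). Il2rb, the interleukin 2 and 15 receptor chain, went from 1.23 and 1.23 to 0.21 and 0.23 (change −1.01 ± 0.084, adjusted p = 4.01e-05), and Klrc2 (−0.68), Klrk1 (−0.64) and Gzma (−0.53) were lower, while Cd244 (0.87) and Il18rap (0.90), which other leukocytes also carry, were higher. The pore-forming Prf1 changed by −0.97 and Fasl by −0.58. Of 26 tested B cell genes, 3 were higher (Bcl11a 0.44, Bank1 0.35, Ralgps2 0.45) and 3 lower (Cd24a −0.86, Faim3 −0.28, Spib −0.24), with a median of −0.0077, beside 11.0% of all probes higher and 10.2% lower. Cd24a is also a red cell gene.

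Some interferon targets rose and a few fell. Of 37 tested type I interferon targets, 13 were higher and 4 lower (median 0.18), beside 11.0% of all probes higher and 10.2% lower. The share that fell, here and among the interferon gamma targets below, was near that of all probes. Irf7, the factor that amplifies the type I interferon response, had 0.98 and 0.90 at 0 w and −0.27 and −0.31 at 8 w (change −1.23 ± 0.094, adjusted p = 2.41e-05), and Isg15, a ubiquitin-like protein, changed by −1.05 and Rsad2 by −0.57. Rtp4 (1.28), Slfn1 (1.21), Oas1a (1.11) and Ifit3 (0.88) went up. Of 26 tested targets of interferon gamma, 6 were higher and 3 lower (median 0.14). Fcgr1, the high-affinity IgG receptor that neutrophils and monocytes carry when activated, led with 1.65 ± 0.099 (adjusted p = 5.85e-06), followed by the GTPases Gbp2 (0.82) and Igtp (0.64), while the interleukin 12 receptor chain Il12rb1 (−0.80) and Tgtp (−0.41) were lower. Both list medians fell below 0 when arrays were centred on pan-leukocyte genes (−0.18 and −0.22) and with normexp (−0.064 and −0.11), but stayed above the median of all probes.

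Of the metabolic and stress lists, glycolysis rose and chaperones fell. Their counts stand beside 11.0% of all probes higher and 10.2% lower. Of 23 tested glycolysis genes, 13 were higher and 1 lower (median 0.57), with the lactate exporter Slc16a3 (1.19), hexokinase Hk2 (0.97) and the regulator Pfkfb4 (0.92) the largest of those that passed. Hexokinase Hk3 changed by 1.33 and did not pass (adjusted p = 0.109). The 1 that fell was Bpgm (−0.97), the bisphosphoglycerate mutase of red cells. Of 24 tested heat shock genes, 12 were lower and 1 higher (median −0.48, but 0.17 above the median of all probes with normexp). Hsph1 had 1.22 and 1.21 at 0 w and 0.09 and 0.06 at 8 w (change −1.14 ± 0.071, adjusted p = 6.86e-06), and the mitochondrial chaperonin Hspd1 (−1.42) and Hspa1a (−1.09) were lower. Of 16 tested glucocorticoid-responsive genes, 5 were lower and 5 higher. Ddit4, an mTOR inhibitor, went from 2.12 and 2.16 to 0.67 and 0.67 (change −1.47 ± 0.083, adjusted p = 3.86e-06), and Fkbp5 (−1.37), the clock gene Per1 (−1.06) and Tsc22d3 (−0.72) fell with it, whereas Il1r2, Mt1 and Mt2, described above, and Sgk1 (0.70) rose. Of 42 tested cell cycle genes, 18 were lower and 1, Kif23 (0.70), was higher (median −0.43). The ubiquitin conjugase Ube2c, abundant in reticulocytes, had 3.38 and 3.41 at 0 w and 2.41 and 2.44 at 8 w (change −0.97 ± 0.11, adjusted p = 0.000192).

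The largest falls were led by probes outside the lists described. Rn18s, a probe for the 18S ribosomal RNA, had levels of 5.92 and 6.66 at 0 w and 3.73 and 4.57 at 8 w (change −2.14 ± 0.34, adjusted p = 0.0028), and a second probe of it changed by −1.02 ± 0.10 (adjusted p = 0.000105). The other 14 of the 15 largest falls were the probes of Olfr1507 (−3.34), Fbxo28 (−3.22), Gar1 (−3.00), Dnah14 (−2.78), Gjd3 (−2.47), Rdh14 (−2.45), Uhrf2 (−2.36), Cyp3a41a (−2.25), B3gnt2 (−2.18), Syt10 (−2.02), Med29 (−1.99), Tmem52 (−1.92), Hamp2 (−1.68) and Arl4d (−1.67). Cyp3a41a and Hamp2 are liver genes. In 11 of these 14 the second replicate lay above the first in both groups, as it did for Rn18s, and the larger gap between replicates had a median of 1.51, whereas among the 15 largest rises 6 showed that order and the median gap was 0.10. Of the 14 genes, 5 had other tested probes, 7 in all, and none of these 7 passed. Fbxo28, for example, had −1.06 and 0.47 at 0 w and −4.03 and −3.00 at 8 w on the probe named, while its other probes changed by −0.39 and 0.44 and did not pass. The other probe of Arl4d changed by −0.954 (adjusted p = 0.0642), that of Rdh14 by −0.355 and that of B3gnt2 by −0.331. Those of Uhrf2 changed by 0.126 and 0.596. The other B3gnt2 probe and the second of these Uhrf2 probes were well above background on only 2 of the 5 arrays. The part of ribosomal RNA in these values was not tested.

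**Figure D4:**
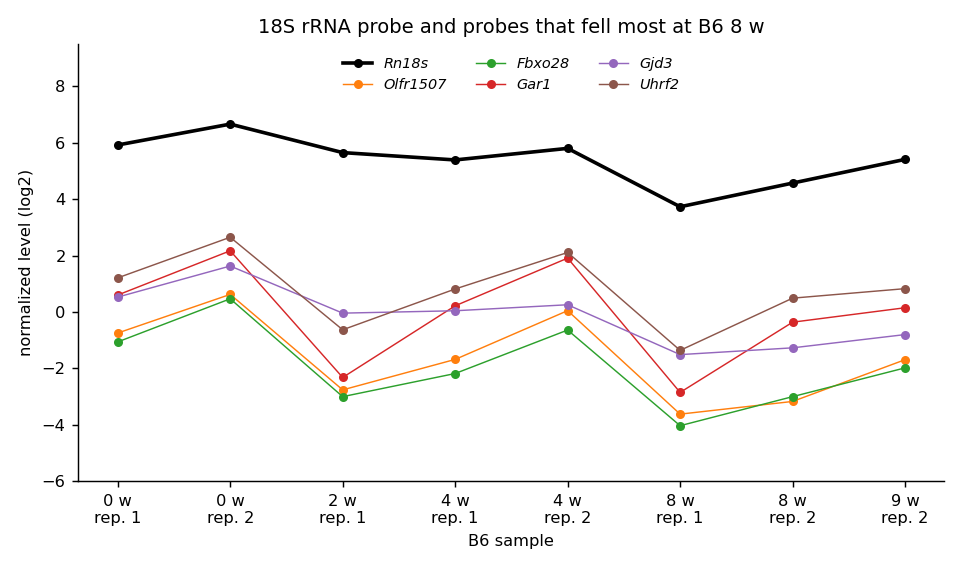
Normalized level (log2, y axis) of the 18S rRNA probe (Rn18s, thick black line) and of 5 of the probes that fell most, in each of the 8 B6 samples (x axis, by week and replicate). The lines join values of 1 probe and have no order in time within a week. Rn18s and the 5 probes are lowest in the first replicate of 8 w, and the second replicate lies above the first at 0, 4 and 8 w.

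Within B6, 8 w was also set beside the other weeks. These values share the 0 w samples, so they are given side by side with no test between them. The median difference of the mature neutrophil genes from the 0 w mean was 0.92 in the 2 w sample, 0.87 and 0.91 at 4 w, 2.43 and 2.43 at 8 w and 1.45 in the 9 w sample. That of the granule genes was 1.00, 0.33 and 0.44, 1.90 and 1.97, and 0.74 in the same order. The 8 w samples were thus the highest of the B6 samples for both lists. The erythroid median was 0.56 at 2 w, 0.49 and 0.40 at 4 w, −0.65 and −0.77 at 8 w and 0.066 at 9 w, so that only the 8 w samples lay below 0 w. The platelet median was −1.42 in the single 2 w sample and 0.46 to 0.60 in the samples of 4, 8 and 9 w.

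**Figure D5:**
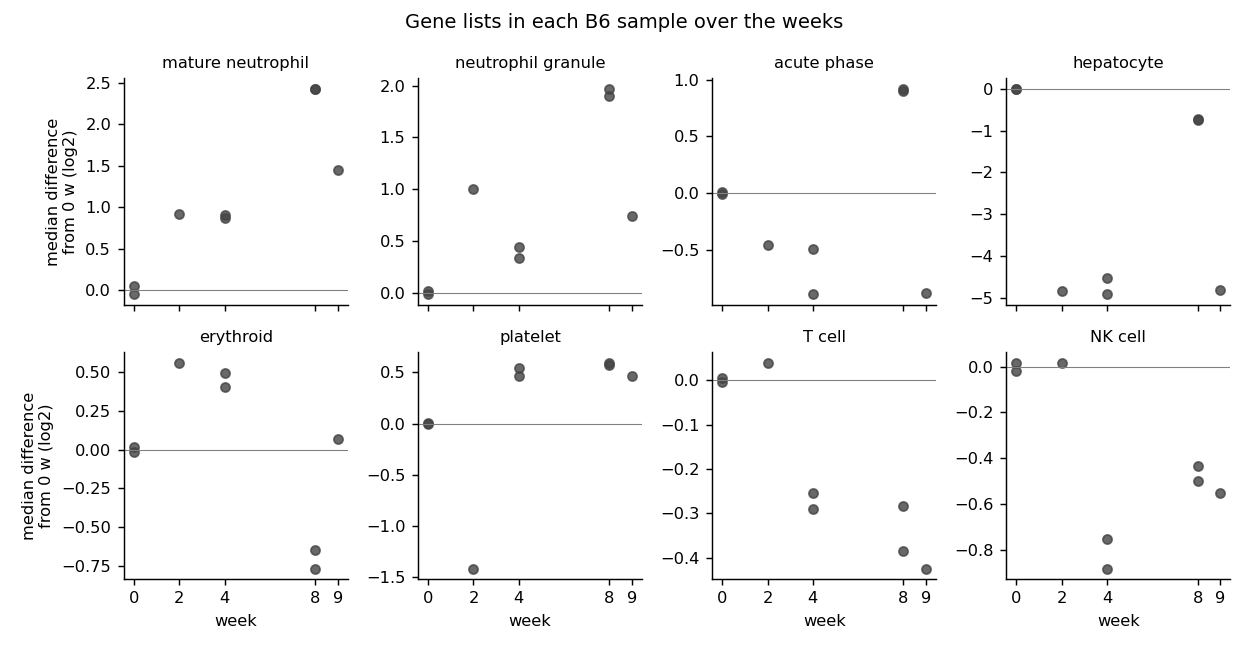
Median difference from the B6 0 w mean (log2, y axis) over the tested genes of 8 lists in each B6 sample, by week (x axis). Each point is 1 sample, with 2 samples at 0, 4 and 8 w and 1 at 2 and 9 w. The 8 w samples are highest for the neutrophil, granule and acute phase lists and lowest for the erythroid list, and the hepatocyte list is high only at 0 and 8 w.

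The same step in DBA/2 mice, which share no sample with B6 and whose hepatocyte sum was 1.73 to 3.06 at 0 and 8 w, was used to see where B6 differed. In DBA/2 23.9% of probes changed at 8 w. The change differed between strains at 17.5% of probes, with DBA/2 above B6 at 1652 (41.2% of these) and below it at 2360, a split that went to 52.6% with the 75th percentile of all probes, to 74.6% with normexp and to 0.769% in the deposited values without scaling. The neutrophil genes had a median change of 2.44 in DBA/2, and the change differed at 10 of 26, 8 with the higher change in DBA/2. S100a8 changed by 3.13 in DBA/2 and the difference of the changes was 0.069 ± 0.10 and did not pass (adjusted p = 0.735).

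Several lists held genes whose change differed between strains, beside 17.5% of all probes. Of 13 tissue macrophage genes, 8 had the higher change in DBA/2 and none the lower, and of 25 monocyte genes 14 had the higher and 1 the lower. Liver RNA, high in the B6 groups alone, also holds tissue macrophage genes, and its part here was not tested. Of 32 erythroid genes, 22 had the higher change in DBA/2 and 3 the lower, and Ahsp differed by 1.53 (adjusted p = 0.000424). Of 26 interferon gamma targets, 21 had the higher change in DBA/2, where the median was 1.26, and of 37 type I targets 22 did. Irf7 rose by 2.08 in DBA/2 against its fall in B6 (difference 3.32 ± 0.13, adjusted p = 4.21e-06). Its levels in DBA/2 were −3.19 and −3.36 at 0 w and −1.20 and −1.19 at 8 w. They thus stayed below those of B6 at 8 w (−0.27 and −0.31). Gbp2 changed by 3.99 in DBA/2 (difference 3.17 ± 0.17, adjusted p = 1.2e-05). Of 25 NK cell genes, 12 had the higher change in DBA/2 and 1 the lower, and of 26 B cell genes 18 had the lower change in DBA/2 and 1 the higher. Of 24 heat shock genes, 12 had the higher change in DBA/2 and 1 the lower, and 8 of 22 platelet genes had the lower. Of 32 acute phase genes, 10 were higher and 1 lower in DBA/2. The change was lower there for 5 and higher for 1, about the share of all probes that differed. Saa2 changed by −0.34 in DBA/2 (difference −6.39 ± 0.43, adjusted p = 4.37e-05), Saa1 by 0.25 (difference −2.98, adjusted p = 0.000325), Mt2 by −0.31 (difference −3.97, adjusted p = 1.84e-05) and Mt1 by −0.24 (difference −2.34, adjusted p = 6.52e-06), while liver RNA was high in the B6 groups alone. Socs3 changed by 1.85 in DBA/2 against 2.52 in B6 (difference −0.669, adjusted p = 0.00214). The synaptogyrin Syngr1, a vesicle membrane protein, rose by 3.60 in DBA/2 and fell by 0.78 in B6 (difference 4.38 ± 0.14, adjusted p = 2.5e-06). Its DBA/2 levels went from −2.41 and −2.25 to 1.25 and 1.29, near those of B6 at 8 w (1.06 and 1.09).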

How the data were processed

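Each sample was 1 Agilent 1-colour whole mouse genome array (G4122F), with the second B6 0 w sample on 2 arrays that were averaged. The authors deposited Feature Extraction output (version 9.5.3.1 per the labels), whose processed signal is a background-corrected intensity, and a value table of the same arrays on the same intensity scale, whose log2 was used as an alternative. Outlier-flagged and control spots were dropped, spots of a probe were averaged, log2 intensities were taken, and each array's 75th percentile over 11533 probes well above background on all 19 arrays was subtracted. The 22936 of 41174 probes that 2 or more samples had well above background entered 1 limma model (lmFit and eBayes, version 3.58.1, R 4.3.3) of 10 groups with 8 residual degrees of freedom, and p-values were adjusted by Benjamini-Hochberg. Precision is limited by how few arrays there are. Of the probes, 24375 were named through their accession, 2426 through a synonym and 6301 by the files' gene name, and 8072 kept the files' label. For a gene with several probes, the one with the highest mean level was taken. Of 4731 genes with at least 2 tested probes, 38 had probes called in opposite directions.

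Gene lists (57, of which 17 were of cell types) and the genes compared were chosen with earlier results of these data known. Named were the 15 largest rises and falls among probes that every array of both groups and the 4 B6 arrays of 2, 4 and 9 w had well above background, with both 8 w samples on 1 side of both 0 w samples, up to 4 rises and 4 falls of each list described together with its defining genes, and the 5 largest differences each way between strains. A few further list members are named as examples, chosen after their values were seen. The main fit has no block for the replicate number. The fitting script was first tested on simulated data. Alternatives were other normalizations, background corrections, filters, blocks, samples and left-out replicates. Figures were drawn with matplotlib 3.10.9.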

Additional observations from a re-analysis of the deposited data

Results flagged for a closer look

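The change from 0 w to 8 w differed between DBA/2 and B6 mice for 68 of 129 named genes that were measured above background in all 4 groups, by limma's test of the difference with an adjusted p under 0.05. Values are the DBA/2 change minus the B6 change on the log2 scale, higher in DBA/2 for 45 and lower for 23. Among red cell genes the difference was Ahsp (1.53), Alas2 (1.53), Bpgm (1.41), Cd24a (1.21), Slc14a1 (−1.96), Tfrc (−0.514) and Ube2c (1.12). Among lymphoid and cytotoxic genes it was Bank1 (−1.1), Bcl11a (−1.97), Cd5 (−0.358), Faim3 (−0.516), Fasl (1.31), Gzma (1.44), Il12rb1 (1.46), Il1rl1 (1.14), Il2rb (1.2), Klrc2 (0.828), Klrk1 (1.21), Prf1 (1.74), Ralgps2 (−1.07) and Spib (−0.471). Among interferon targets it was Fcgr1 (1.93), Gbp2 (3.17), Ifit3 (2.17), Ifitm1 (−0.674), Igtp (0.626), Irf7 (3.32), Isg15 (2.66), Oas1a (2.18), Rsad2 (1.2), Rtp4 (1.38) and Tgtp (1.99). Among neutrophil, monocyte and receptor genes it was Cd300lf (−0.665), Chi3l3 (−1.17), Clec4e (0.746), Csf1r (1.49), Cxcr4 (1.06), F13a1 (−1.1), Gsdme (−1.15), Il1r2 (0.654), Mmp8 (−0.715), Pram1 (−1.26), Slc16a3 (0.698) and Tyrobp (0.468). Among macrophage genes, which liver or its macrophages also express, it was Apoe (2), C1qa (2.75), C1qc (2.53) and Timd4 (2.03). The part of the liver RNA, high in the B6 groups alone, in these values was not tested. Among liver and acute phase genes, where liver RNA was high in the B6 groups alone, it was Cyp3a41a (1.65), Mt1 (−2.34), Mt2 (−3.97), Saa1 (−2.98), Saa2 (−6.39) and Socs3 (−0.669). Among platelet genes it was Gp1ba (−1.07), Gp1bb (−0.703) and Thbs1 (−1.18). Among heat shock and glucocorticoid-responsive genes it was Ddit4 (1.41), Fkbp5 (1.56), Hsph1 (1.57), Per1 (1.32) and Tsc22d3 (0.846). The other genes were Fbxo28 (3.35), Gjd3 (2.91), Olfr1507 (2.95), Rn18s (2.79), Syngr1 (4.38) and Syt10 (2.43). Left out were 15 genes that no array of at least 1 of the groups had well above background. The 4 groups held 2 samples each. The genes were chosen mostly for their B6 change, which is part of this difference, and some for the size of the difference itself. The same difference passed at 17.5% of all tested probes, but that choice can by itself raise the share among the named genes. The 68 of 129 is therefore no measure of how often the strains differed.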

How the results depend on the processing

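Changed probes were counted for the B6 comparison (4858), for its probes well above background where liver markers were low (4157), and for the strain difference (4012). The probes behind the middle count were chosen by the B6 arrays with low liver markers, and 8 hepatocyte markers were among them. In that order, the counts were 14239, 11147 and 13912 in the deposited values without scaling. They were 2721, 2314 and 1858 with no filter on dim probes, and 777, 745 and 126 with normexp. The B6 counts were 8766 and 7608 with arrays centred on pan-leukocyte genes, 1527 and 1215 in a fit of the 4 samples alone, and 2736 and 1173 for a 2-fold change with no test. The median strain difference of all probes was −1.26 without scaling and 0.55 with normexp. Leaving out 1 sample gave 2989 to 3360 probes for the B6 comparison (2989 without the first and 3217 without the second 0 w sample), 2581 to 2852 without liver RNA and 2752 to 3246 for the strain difference, the lone sample being assumed to vary like the other groups. With the replicate block the counts were 6143, 5287 and 5304, and with slide as a block 5837, 4964 and 5359. The deviations of same-numbered samples, which shared a scan day, correlated at 0.40 between B6 0 w and 8 w but at −0.025 to 0.83 over all pairs of groups, so the numbers were not taken to pair the samples. With the hepatocyte level as a covariate 3945 probes changed in B6. The cause of these shifts was not tested.

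Of 141 named genes, 127 passed, and a direction was read only for those that passed in either fit. None turned its sign within a scan day, within the slide shared by both groups, with the replicate block or without 1 sample, and the replicate block ended no call. In the deposited values without scaling, 25 turned to a positive change, all of them below the median of all probes on that scale: Bpgm (0.0551), C1qc (0.0271), Cd24a (0.162), Cd5 (0.412), Clec2d (0.665), Cxcr4 (0.272), Faim3 (0.741), Fasl (0.47), Gzma (0.496), Il12rb1 (0.224), Il18r1 (0.716), Il2rb (0.00671), Irak1 (0.619), Klrc2 (0.34), Klrk1 (0.383), Lck (0.476), Nlrp3 (0.765), Prf1 (0.0554), Rsad2 (0.451), Spib (0.782), Syk (0.917), Tgtp (0.612), Trat1 (0.219), Tsc22d3 (0.3) and Ube2c (0.0524). With normexp 6 turned, Il18rap (−0.406), Il1rap (−0.181), Kif23 (−0.315), Slfn1 (−0.15), Tfrc (−0.566) and Tlr4 (−0.38), and with pan-leukocyte centring Bank1 did (−0.00445). The calls of 30 genes were lost without 1 of the 4 samples, namely B3gnt2, Bank1, Bcl11a, C1qa, C1qc, Clec2d, Cyp3a11, Dnah14, Faim3, Fbxo28, Gar1, Hamp2, Hpx, Hspa1a, Hspd1, Il12rb1, Il18r1, Irak1, Klrc2, Klrk1, Lck, Med29, Ralgps2, Rdh14, Spib, Syt10, Tfrc, Timd4, Tmem52 and Uhrf2. Those of Bank1, C1qc, Cyp3a11, Faim3, Hpx, Ralgps2, Spib and Syt10 were lost whichever of the 4 was left out. Normexp ended 58 calls, the 4 samples alone 42 and the hepatocyte covariate 12.

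Signal over background limits Camp, Ngp, Lcn2, Il1rn, Il1rap and Tlr4 to lower bounds, and saturation leaves the globins without a fold.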
